A study of Mus musculus with 12 samples.

Results

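TGF-beta and activin signaling was followed through 10 genes, chosen by name for their place in the pathway, with earlier results of these data known. They were the ligands Tgfb1, Tgfb2 and Tgfb3, the receptors Tgfbr1, Tgfbr2 and Tgfbr3, and the activin subunits Inhba and Inhbb. The others were the inhibitor Smad7 and the latency protein Ltbp1. All 10 were among the 16411 genes of the deposited count table, and all 10 passed the filter on low counts. The libraries came from 6 tumors and 6 pieces of benign tissue of the mammary gland, and every sample came from a female, heterozygous MMTV/neu ndl-YD5 mouse on the FVB background. In this line the MMTV promoter, active mainly in mammary epithelium, drives an activated Neu (the ErbB2 or HER2 receptor) in which the YD site, which couples to SHC/GRB2, has been added back. Benign tissue was mammary tissue with no visible tumor taken far from the tumor site, so the benign samples carried the transgene too and came from other mice than the tumors. Mice were followed from 10 weeks of age for about 10 further weeks, and the age of each sampled mouse is not given in the sources used here.

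TGF-beta ligands are secreted in a latent complex with a latent TGF-beta binding protein such as Ltbp1, from which integrins or thrombospondin can release them. The free ligand binds Tgfbr2, which recruits and activates Tgfbr1, while the co-receptor Tgfbr3 (betaglycan) presents ligand, and the active receptors phosphorylate SMAD2 and SMAD3, which enter the nucleus with SMAD4. Activins, dimers of the inhibin beta subunits encoded by Inhba and Inhbb, signal to the same SMADs through their own receptors, and Smad7 is induced by the pathway and shuts it down. In the mammary gland TGF-beta is known to restrain epithelial proliferation and to act in involution and in the stroma.

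Total counts ranged from 5240853 to 8588567 per sample, and replicates differed by more than sampling noise. Counts under Erbb2, the receptor that the transgene encodes, separated the labels, with 56.8 ± 11.2 CPM (counts relative to the library total, scaled by TMM factors for library composition; mean ± SD, n = 6) in benign tissue and 7411 ± 5090 CPM in tumors (n = 6). Markers of several cell types differed between the groups. The summed level of 9 adipocyte markers was 9519 to 20645 CPM in benign tissue and 29.98 to 133 CPM in tumors, that of 6 fibroblast markers 3370 to 7562 and 247 to 584 CPM, and that of 6 endothelial markers 581 to 1074 and 80.9 to 97.5 CPM. All 6 basal and myoepithelial markers were lower in tumors as well, from 421 to 816 CPM down to 9.97 to 62.1 CPM, whereas 6 of 8 luminal epithelial markers were higher (summed over the 8, 939 to 2649 and 3016 to 4496 CPM). Of the remaining luminal markers, the keratin Krt19 was lower, with every tumor below every benign sample (means of 356 and 13.3 CPM, log2 fold change -4.74, adjusted p = 4.5e-06, edgeR), and Cldn4 was not called (0.35, adjusted p = 0.449). Among benign samples, replicates 3, 4 and 6 held skeletal muscle markers at 34598 to 86947 CPM against 15.2 to 352 CPM in the others. Replicate 1 held lymphocyte markers at 579 CPM against 4.08 to 7.39 CPM. Summed brown fat markers were at 2454 CPM in benign replicate 4 and 545 CPM in replicate 6, against 19.7 to 97.1 CPM in the other benign samples. In bulk tissue, fewer cells of a type and less RNA per cell cannot be told apart, and the part of these markers in the results below was not tested.

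Tumors were compared with benign tissue to ask how the RNA of the pathway differs once HER2-driven tumors have formed. With edgeR's quasi-likelihood test across 13191 genes and an adjusted p threshold of 0.1, 2 of the 10 genes were higher in tumors (Inhbb and Tgfb3) and 2 were lower (Tgfbr3 and Tgfbr2), and 6 did not pass. Of all genes tested, 28.2% were called higher and 34.8% lower, or 63% in either direction, so the share of 4 in 10 was below that of the table as a whole. All 6 tumors lay above all 6 benign samples for 2 of the genes (14.7% of all genes tested) and below them for 1 (21.2%), so 3 of the 10 did not overlap (35.9%). The median log2 fold change of the 10 was 0.35, beside -0.06 for all genes tested. Summed over the 10 genes, RNA was 597 to 851 CPM in benign samples and 891 to 1447 CPM in tumors. This sum mixes ligands, receptors and an inhibitor, so it does not measure the pathway as a whole. The largest rises in it were those of Inhbb (means of 65.0 and 425 CPM) and Tgfb3 (106 and 365 CPM), while Tgfbr3 and Tgfbr2 fell.

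**Figure D1:**
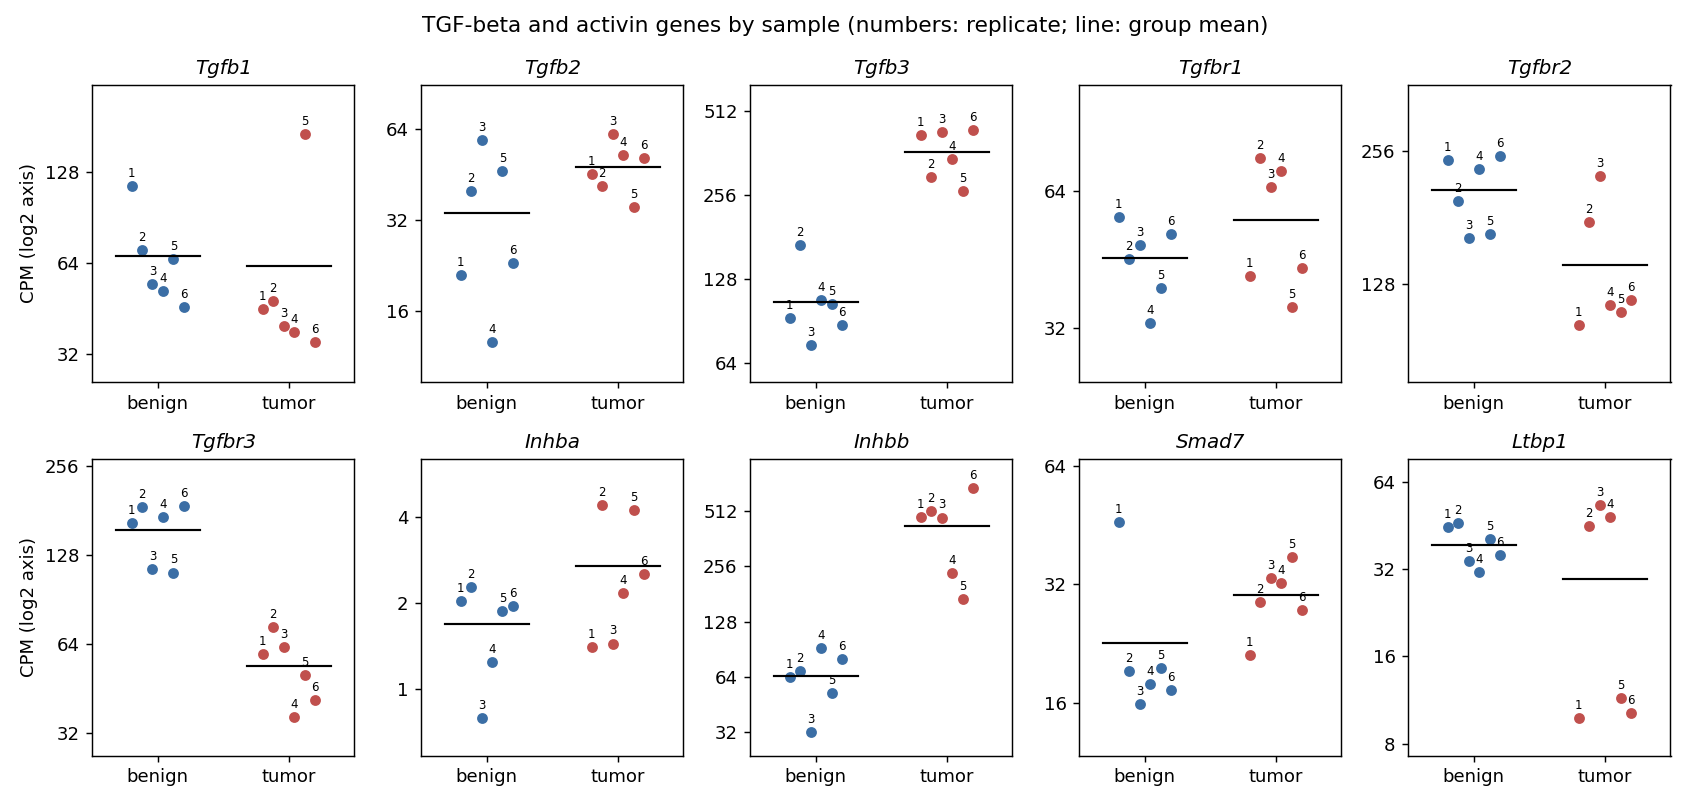
Level of each of the 10 genes in every sample, in CPM on a log2 axis, for benign tissue (blue) and tumors (red), with the replicate number at each point and a line at the group mean. Tgfb3 and Inhbb lie higher in every tumor than in any benign sample, Tgfbr3 lies lower in every tumor, and Tgfb1 in tumor 5 (171 CPM) and Smad7 in benign replicate 1 (45.9 CPM) stand apart from their groups.

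Inhbb, which encodes the beta B subunit of activin B, showed the largest rise of the 10 genes. It lies at chr1:119415465-119422248 on the minus strand (GRCm38). In benign tissue its lowest, median and highest levels were 32.2, 66.3 and 92.1 CPM, and in tumors 170, 474 and 682 CPM. Every tumor was above every benign sample, and tumors 4 (235 CPM) and 5 (170 CPM) were the lowest of the tumors. The group means were 65.0 ± 21.1 CPM and 425 ± 190 CPM (SD, n = 6 each), a ratio of 6.53, and the edgeR log2 fold change was 2.71 (SE 0.35, adjusted p = 2.6e-05).

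Inhba, the beta A subunit of activin A, had the fewest counts of the 10 genes. It lies at chr13:16011851-16031621 on the plus strand and had 6 to 33 counts per sample, so its levels are the least precise. Benign samples ran from 0.791 through a median of 1.91 to 2.27 CPM, and tumors from 1.40 through 2.34 to 4.4 CPM. The groups overlapped, with tumors 2 and 5 the highest and tumors 1, 3 and 4 inside the benign range. The log2 fold change was 0.66 (SE 0.37), and the adjusted p of 0.142 (edgeR) missed the threshold. It passed when benign replicate 2, tumor 1 or tumor 3 was left out, at a log2 fold change of 0.83, 0.85 and 0.86. Without benign replicates 3, 4 and 6 the log2 fold change was 0.42 and not called.

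The balance between the beta subunits was compared within each sample, where library scaling cancels. The log2 ratio of Inhba to Inhbb counts was -5.03 ± 0.47 in benign tissue and -7.13 ± 1.15 in tumors (SD, n = 6 each), a difference of -2.10. The exact two-sided permutation test over 924 regroupings gave p = 0.00433, or 0.0072 after Benjamini-Hochberg adjustment over the 5 ratios computed. Tumor 5, at -5.24, lay inside the benign range, and the other tumors lay between -8.15 and -6.59.

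The sequences just upstream of both activin subunit genes are shown because the genes encode interchangeable subunits and only one of them passed the test, and the upstream sequence of Tgfbr2 is shown beside them as that of a called receptor. Each is the 250 bases before the RefSeq start on GRCm38.p6, written 5′ to 3′ on the strand of the gene, with capitals marking a match of any of 5 motifs searched on both strands. The windows are chr1:119422249-119422498 (minus strand), chr13:16011601-16011850 (plus strand) and chr9:116175364-116175613 (minus strand). The bases just after the RefSeq start were found in a GENCODE M21 transcript of the same gene for Inhbb and Inhba, but not for Tgfbr2.
Inhbb: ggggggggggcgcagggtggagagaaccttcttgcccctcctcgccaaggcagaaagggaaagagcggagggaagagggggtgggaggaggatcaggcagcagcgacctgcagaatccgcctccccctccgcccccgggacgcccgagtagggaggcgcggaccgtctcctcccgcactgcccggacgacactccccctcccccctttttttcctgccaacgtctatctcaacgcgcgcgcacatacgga
Inhba: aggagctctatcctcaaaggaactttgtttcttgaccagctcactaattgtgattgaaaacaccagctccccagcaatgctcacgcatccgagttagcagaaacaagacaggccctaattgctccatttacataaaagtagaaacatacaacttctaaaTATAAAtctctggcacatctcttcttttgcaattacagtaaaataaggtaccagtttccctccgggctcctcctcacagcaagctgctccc
Tgfbr2: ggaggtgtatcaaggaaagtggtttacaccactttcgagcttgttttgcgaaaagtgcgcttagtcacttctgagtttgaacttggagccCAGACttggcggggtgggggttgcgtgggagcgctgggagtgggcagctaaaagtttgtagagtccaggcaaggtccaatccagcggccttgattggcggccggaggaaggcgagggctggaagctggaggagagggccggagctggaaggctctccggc
The motifs were the SMAD box CAGAC, the palindrome GTCTAGAC, the AP-1 site TGANTCA, the cyclic AMP element TGACGTCA and the TATA box TATAAA, and none contains another. The window of Inhbb held no match and was 68.0% G or C, against a median of 52.4% over 32851 mouse windows of that length. That of Inhba was 43.2% G or C, with 1 TATAAA ending 85 bases before the start, a match found in 12.4% of all windows. That of Tgfbr2 held 1 CAGAC ending 155 bases before the start, as did 42.2% of all windows at least once, while GTCTAGAC occurred in 0.167%, TGANTCA in 6.75% and TGACGTCA in 1.55%. Entries were used for 7 of the 10 genes. These matches describe letters and were not tested against the RNA.

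Tgfb3 rose in tumors. This ligand, known for its induction in mammary involution, lies at chr12:86056745-86079041 on the minus strand. Its lowest, median and highest levels were 73.9, 98.1 and 169 CPM in benign tissue and 265, 381 and 436 CPM in tumors. No tumor overlapped the benign range, whose highest sample was replicate 2. Means were 106 ± 33.3 and 365 ± 74.3 CPM (SD, n = 6 each), a ratio of 3.45, and the log2 fold change was 1.79 (SE 0.21, adjusted p = 1.0e-05, edgeR).

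Tgfb1, the ligand most widely expressed by immune and stromal cells, ran from 46.0 through a median of 60.5 to 115 CPM in benign tissue and from 35.0 through 42.4 to 171 CPM in tumors. Of the 6 tumors, 4 lay below the lowest benign sample, and tumor 5 lay above the highest. The log2 fold change was -0.10 (SE 0.40, adjusted p = 0.845, edgeR). This value rested on tumor 5: without it the log2 fold change was -0.65 and was called lower (adjusted p = 0.024, edgeR), and without both benign replicate 1 and tumor 5 it was -0.44 (adjusted p = 0.025). Without benign replicate 1 alone it was 0.16, which was not called. In tumor 5 the macrophage marker sum was 144 CPM, the lowest of the tumors (144 to 263 CPM), and the lymphocyte marker sum was 0.384 CPM. The same tumor held the highest sums of skeletal muscle markers, 129 CPM against 0.843 to 8.77 CPM in the other tumors, and of brown fat markers, 24.0 CPM against 1.56 to 7.01 CPM.

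Tgfb2, an isoform known mainly from epithelium and development, ran from 12.6 through 31.5 to 58.8 CPM in benign tissue and from 35.3 through 48.4 to 61.6 CPM in tumors. Benign samples spread widely and the tumors sat in the upper part of that range or, for tumor 3, just above it. The log2 fold change of 0.50 (SE 0.31, adjusted p = 0.187, edgeR) was not called, but was 0.74 (adjusted p = 0.051) without benign replicate 3, the highest benign sample. With a score of the skeletal muscle markers and the brown fat marker Ucp1 as covariates, it was 0.15 and not called.

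Within samples, the ligands shifted relative to each other. The log2 ratio of Tgfb3 to Tgfb1 was 0.66 ± 0.56 in benign tissue and 2.78 ± 1.11 in tumors (SD, n = 6 each), a difference of 2.12 (exact permutation p = 0.0108, adjusted 0.0135 over 5 ratios). Tumor 5, at 0.63, was inside the benign range, and the other tumors were at 2.61 to 3.63, above every benign sample. The log2 ratio of Tgfb2 to Tgfb1 was -1.11 ± 0.95 and -0.14 ± 1.10, a difference of 0.97 that did not pass (exact permutation p = 0.132, adjusted 0.132). Without tumor 5 that difference was 1.40 (exact permutation test, adjusted p = 0.013).

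**Figure D2:**
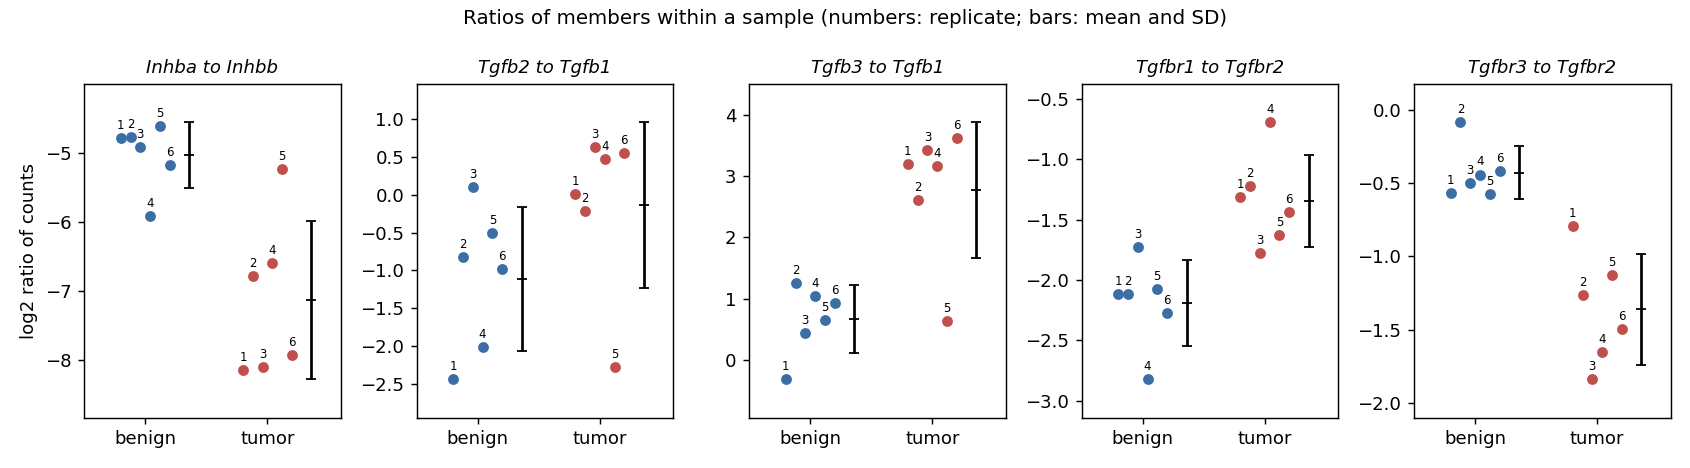
Log2 ratios of counts between pairs of the 10 genes within each sample (2 prior counts), for benign tissue (blue) and tumors (red), with replicate numbers and bars of mean and SD. The ratio of Tgfbr3 to Tgfbr2 separates the groups without overlap. Tumor 5 lies within the benign range for Inhba to Inhbb, Tgfb2 to Tgfb1 and Tgfb3 to Tgfb1, and tumors 1 and 2 also do for Tgfb2 to Tgfb1.

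Tgfbr3, the co-receptor betaglycan, which binds TGF-beta and inhibin, fell in tumors. It lies at chr5:107106570-107289629 on the minus strand. Its lowest, median and highest levels were 112, 168 and 187 CPM in benign tissue and 36.3, 55.0 and 73.4 CPM in tumors, and no tumor reached the benign range. The means of 156 ± 34.3 and 54.0 ± 13.9 CPM (SD, n = 6 each) made it 2.89-fold lower, and the log2 fold change was -1.53 (SE 0.20, adjusted p = 2.6e-05, edgeR). Markers of adipocytes, fibroblasts, endothelium and basal and myoepithelial cells were lower in the same tumors, by the values given above. Their part in the fall of Tgfbr3 was not tested.

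Tgfbr2, the receptor that binds TGF-beta and carries the constitutively active kinase, lies at chr9:116084293-116175360 on the minus strand. Benign samples ran from 162 through a median of 216 to 250 CPM and tumors from 103 through 116 to 225 CPM. Tumors 2 (177 CPM) and 3 (225 CPM) lay inside the benign range and the other 4 below it. Means were 209 ± 39.2 and 141 ± 48.9 CPM, and the log2 fold change was -0.56 (SE 0.21, adjusted p = 0.035, edgeR). The call was lost in 7 of 23 alternatives: without tumor 1 (-0.42, adjusted p = 0.115), 4 (-0.44, 0.11), 5 (-0.44, 0.101) or 6 (-0.45, 0.107), without benign replicates 3, 4 and 6 (-0.48, 0.150), without benign replicate 1 and tumor 5 (-0.39, 0.160), and with the muscle score and Ucp1 as covariates (-0.53, 0.169).

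Tgfbr1, the signaling kinase that Tgfbr2 activates, ran from 32.8 through 47.1 to 56.3 CPM in benign tissue and from 35.5 through 54.4 to 75.9 CPM in tumors. Tumors 2, 3 and 4 were above every benign sample and the other 3 were inside the benign range. The log2 fold change of 0.28 (SE 0.21, adjusted p = 0.264, edgeR) did not pass. It was called without tumor 5 (0.44, adjusted p = 0.067) and without benign replicate 1 and tumor 5 (0.51, adjusted p = 0.047). With the muscle score and Ucp1 as covariates it was 0.054 and not called.

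The receptors changed unequally. The log2 ratio of Tgfbr1 to Tgfbr2 was -2.19 ± 0.36 in benign tissue and -1.34 ± 0.38 in tumors (SD, n = 6 each), a difference of 0.85 (exact permutation p = 0.00433, adjusted 0.0072), with tumor 3 inside the benign range. The log2 ratio of Tgfbr3 to Tgfbr2 was -0.43 ± 0.18 and -1.36 ± 0.38, a difference of -0.93. For this ratio the groups did not overlap, and the exact permutation p of 0.00216 (adjusted 0.0072) is the smallest that 6 against 6 samples can give.

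Smad7, the inhibitory SMAD that the pathway itself induces, ran from 15.8 through 18.5 to 45.9 CPM in benign tissue and from 21.2 through 30.5 to 37.5 CPM in tumors. Every tumor was above the other 5 benign samples, but below benign replicate 1, the sample with lymphocyte markers. Means were 22.6 ± 11.5 and 30.1 ± 5.58 CPM, and the log2 fold change of 0.42 (SE 0.26, adjusted p = 0.188, edgeR) was not called. Leaving out benign replicate 1 gave 0.79 and a call (adjusted p = 0.00071), as did leaving it out together with tumor 5 (0.73, adjusted p = 0.0011). Leaving out tumor 1 gave 0.57 (adjusted p = 0.081). Without benign replicates 3, 4 and 6 the log2 fold change was 0.15 and not called.

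Ltbp1, which tethers latent TGF-beta to the matrix, split the tumors. Benign samples ran from 31.4 through 38.3 to 46.2 CPM. Tumors 2, 3 and 4 were at 45.1, 53.1 and 48.5 CPM, whereas tumors 1, 5 and 6 were at 9.81, 11.5 and 10.2 CPM, below every benign sample. Means were 38.9 ± 6.01 and 29.7 ± 21.2 CPM, and the log2 fold change was -0.39 (SE 0.43, adjusted p = 0.465, edgeR), with no call in any of the 23 alternatives. Tumors 2, 3 and 4 were also the highest tumors for Tgfbr1, as given above. They were not compared as a group, since nothing in the labels sets them apart.

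**Figure D3:**
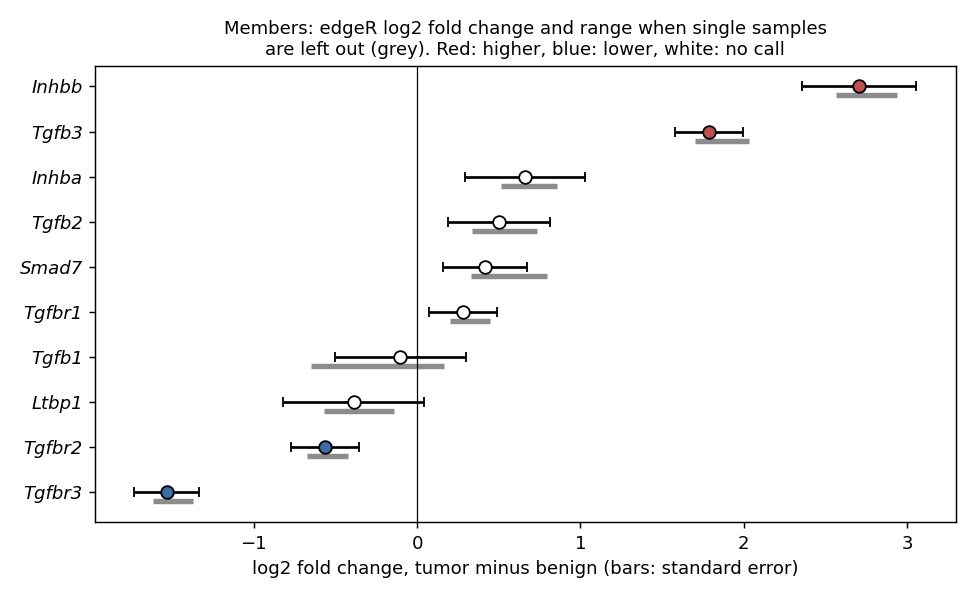
edgeR log2 fold change (tumor minus benign) of the 10 genes with its standard error (bars), and the range of the value when each of the 12 samples is left out in turn (grey). Inhbb, Tgfb3 and Tgfbr3 keep narrow ranges away from 0, while the range of Tgfb1 crosses 0, from -0.65 without tumor 5 to 0.16 without benign replicate 1.

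Levels of different genes were compared per kilobase of exon. Tgfb3 had the highest level in both groups, at 31.2 ± 9.83 CPM per kilobase in benign tissue and 108 ± 21.97 in tumors (SD, n = 6 each). Inhbb moved from the fourth place to just behind Tgfb3, from 15.3 to 99.8 CPM per kilobase, while Tgfbr3 moved from the third to the seventh place, from 23.9 to 8.25. In benign tissue the order was Tgfb3, Tgfbr2, Tgfbr3, Inhbb, Tgfb1, Tgfbr1, Tgfb2, Smad7, Ltbp1 and Inhba. Neighbours in this order overlapped between samples, except that Tgfb1 lay above Tgfbr1 and Ltbp1 above Inhba in every sample of the group. In tumors the order was Tgfb3, Inhbb, Tgfbr2, Tgfb1, Tgfbr1, Tgfb2, Tgfbr3, Smad7, Ltbp1 and Inhba, and only the steps from Inhbb to Tgfbr2 and from Ltbp1 to Inhba had no overlap. Inhba was lowest in both, at 0.265 and 0.421 CPM per kilobase. With the longest transcript as the length, Tgfb1 moved up to rank 2 in benign tissue and rank 3 in tumors.

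**Figure D4:**
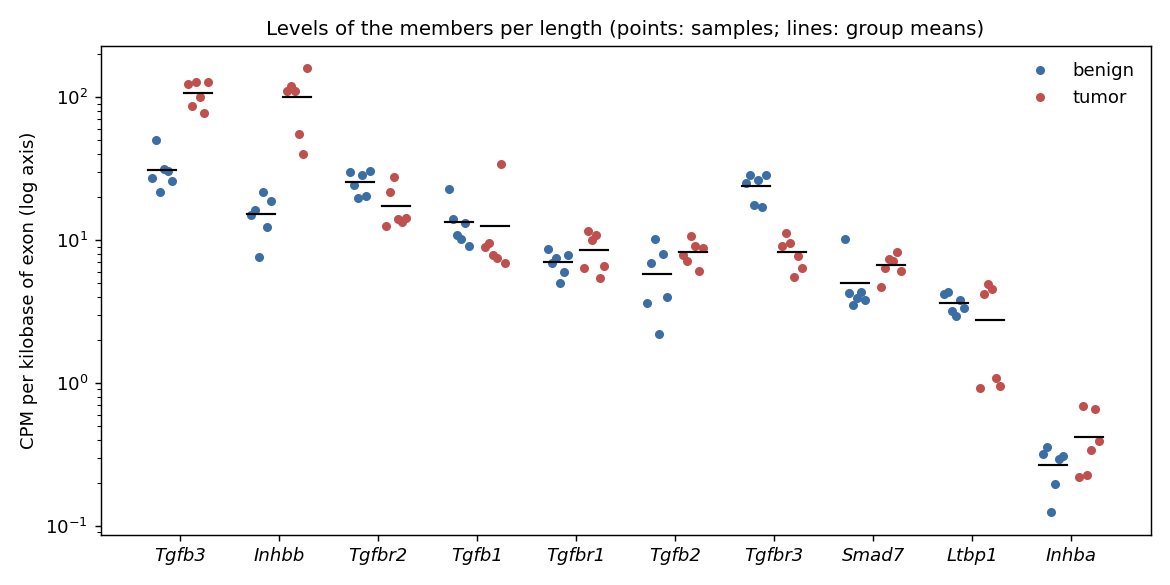
Level per kilobase of exon (log axis) of the 10 genes in each benign sample (blue) and tumor (red), with lines at group means, in order of their mean in tumors. Tgfb3 and Inhbb, at means of 108 and 99.8 CPM per kilobase in tumors, stand above the other genes there, and Inhba is below 1 in every sample.

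The genes whose profile over the 12 samples lay nearest to that of Inhbb were F3, Cutal and Tmtc2, with mean absolute differences of 0.357, 0.363 and 0.365 between centred log2 CPM values, among 10904 genes with a mean of at least 10 CPM. For Tgfbr3 they were Il6st, Dpysl2 and Phka2, at 0.161, 0.170 and 0.177. These distances are descriptions, and all points share the same 12 libraries.

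Beyond the 10 genes, 64 other genes of the pathway were listed by role, of which 59 were in the table and 56 passed the filter. Of these 56, 19 were higher in tumors, 27 were lower and 10 did not pass, with a median log2 fold change of -0.58 beside -0.06 for all genes tested. Over all genes tested, 28.2% were called higher and 34.8% lower. All tumors lay above all benign samples for 10 of the 56 and below for 19, beside 14.7% and 21.2% of all genes tested.

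Among 7 other receptors, 1 was higher and 5 were lower, where 28.2% of all genes tested were higher and 34.8% lower. Acvr1c, the type I receptor ALK7 known from adipocytes, fell from 34.8 ± 10.1 to 0.267 ± 0.179 CPM (SD, n = 6 each), a log2 fold change of -6.89 (adjusted p = 2.3e-08, edgeR), with 4 counts at most in any tumor. Eng, the endothelial co-receptor endoglin, fell from 182 ± 28.3 to 25.2 ± 4.15 CPM (log2 fold change -2.85), and Acvrl1, the endothelial type I receptor ALK1, also fell (log2 fold change -1.16). These falls ran beside those of the adipocyte and endothelial markers given above. The receptors that bind activin and carry its signal, Acvr1c among them, differed among themselves. Acvr1c fell, as given above, whereas Acvr1b, the main type I receptor of activin, rose (log2 fold change 0.62, SE 0.20, adjusted p = 0.020, edgeR). Acvr2a fell (-0.57, SE 0.13, adjusted p = 0.0019). Acvr2b was at 0.55 (adjusted p = 0.192) and not called, except without tumor 4 (0.74, adjusted p = 0.088) or tumor 6 (0.79, adjusted p = 0.031). Acvr1, a receptor mainly of bone morphogenetic proteins, was lower (log2 fold change -0.60), a call lost with the muscle score and Ucp1 as covariates (-0.52, adjusted p = 0.115) and without benign replicates 3, 4 and 6 (-0.44, adjusted p = 0.156).

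Of the other ligands of the branch, 3 were tested. Gdf11, a close relative of myostatin, fell from 9.87 ± 6.53 to 0.773 ± 0.353 CPM (log2 fold change -3.62, SE 0.44, adjusted p = 1.4e-05, edgeR). Inha, the alpha subunit that turns an activin beta subunit into inhibin, was at 3.87 to 7.41 CPM in benign tissue and at 12.7 CPM in tumor 5 against 0.439 to 4.36 CPM in the other tumors. Its log2 fold change was -0.69 (adjusted p = 0.430, edgeR), and without tumor 5 it was -1.82 and called lower (adjusted p = 0.011). Lefty1, an antagonist of Nodal, was at 0.41 (adjusted p = 0.243) and not called. Mstn, the muscle ligand myostatin, was not tested, with 24.3 to 470 CPM in benign replicates 3, 4 and 6, 0 to 2.50 CPM in the other benign samples and 0 in every tumor, which follows the muscle markers.

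Among the antagonists, 1 of 3 tested passed, beside 63% of all genes tested. This was Fst, which encodes follistatin, the secreted protein that binds and neutralizes activins, and it fell. It was at 8.62 to 18.8 CPM in benign tissue and 0.120 to 1.38 CPM in tumors, and the log2 fold change was -4.84 (SE 0.48, adjusted p = 2.4e-06, edgeR). The follistatin-like gene Fstl3 (0.26, adjusted p = 0.483) and the decoy receptor Bambi (0.10, adjusted p = 0.837) were not called. Tdgf1 was at or near 0 throughout and was not tested.

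All 11 genes of latency and activation passed (63% of all genes tested did), 6 higher and 5 lower, with a median log2 fold change of 0.41. Of these calls 3 depended on single samples, and these genes are named after their values were seen: Ltbp3 (0.41) was not called without benign replicate 3 or 5 (0.37 and 0.39), Itgb6 (1.05) without benign replicate 4 or 5 or tumor 2 or 3 (0.93 to 1.03), and Fbn1 (-0.59) without benign replicate 1 or 2 or tumor 4 or 6 (-0.52 to -0.40). Ltbp2, a relative of Ltbp1 in the matrix, had the largest rise, from 57.2 to 110 CPM in benign tissue to 131 to 1177 CPM in tumors (log2 fold change 3.09, SE 0.41, adjusted p = 3.1e-05, edgeR). Tumor 5, at 131 CPM, was the lowest tumor for Ltbp2 and the others were at 644 CPM or more. Ltbp4 fell from 243 ± 61.5 to 31.0 ± 6.37 CPM (log2 fold change -2.97). Thbs1, which encodes the activator thrombospondin 1, rose with a log2 fold change of 2.65 (adjusted p = 1.3e-04), and tumors 2, 3 and 4 were at 1211.6 to 1479.7 CPM against 367 to 452 CPM in the others. Emilin1, a matrix protein that restrains processing of the TGF-beta precursor, fell from 36.8 ± 16.4 to 6.06 ± 1.96 CPM (log2 fold change -2.60). Named after its values were seen, Itgb8, the beta subunit of an integrin that frees latent TGF-beta, had the next largest rise of the list (log2 fold change 2.23, adjusted p = 5.5e-05). Nrros (-2.35) and Lrrc32 (-2.26), also named after their values were seen, fell by more than Itgb8 rose. For both, every tumor lay below every benign sample.

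Of 5 transducers tested, 3 were higher and 1 lower, beside 28.2% and 34.8% of all genes tested. The receptor-activated SMADs moved in opposite directions. Smad3 was at 54.8 to 86.3 CPM in benign tissue and 109 to 155 CPM in tumors (log2 fold change 0.99, SE 0.13, adjusted p = 3.2e-05, edgeR), and Smad2 at 54.0 to 66.9 and 32.5 to 40.5 CPM (log2 fold change -0.65, SE 0.092, adjusted p = 6.0e-05). The groups overlapped for neither gene. Smad4, their common partner, was not called (-0.11, adjusted p = 0.369). Trim33, a SMAD-binding ubiquitin ligase, rose from 47.0 ± 12.7 to 117 ± 15.7 CPM (log2 fold change 1.31), and Zfyve9 (SARA), an anchor of SMAD2 and SMAD3, was at 0.52 (adjusted p = 0.051), a call lost without benign replicate 5 (0.46, adjusted p = 0.1001).

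All 10 feedback genes and repressors passed, beside 63% of all genes tested, 7 higher and 3 lower, with a median log2 fold change of 0.78. Pmepa1, a pathway-induced inhibitor that binds receptor-activated SMADs, rose from 125 to 277 CPM in benign tissue to 361 to 971 CPM in tumors (log2 fold change 1.82, SE 0.24, adjusted p = 3.3e-05, edgeR). The corepressors Tgif1 (log2 fold change 1.71) and Skil, which encodes SnoN (1.51), rose with it. Tgif2 was called lower at -1.02 (adjusted p = 0.092), a call that was lost in 16 of the alternatives, among them leaving out any of benign replicates 1, 2, 3 and 5 or of tumors 1, 2, 3, 4 and 6 (-1.04 to -0.78). The calls of Smad6 (-0.70) and Ski (0.56), named after their values were seen, were lost with the muscle score and Ucp1 as covariates (-0.40 and 0.40), and that of Smad6 also without benign replicates 3, 4 and 6 (-0.55). In the same tumors 6 of the 8 luminal epithelial markers were higher and Krt19 was lower.

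Of 17 target genes tested, 2 were higher, 11 lower and 4 not called, with a median log2 fold change of -1.41, where 28.2% of all genes tested were higher and 34.8% lower. The largest falls were those of Angptl4, a secreted lipase inhibitor of adipose tissue (226 ± 95.0 to 8.96 ± 2.48 CPM, log2 fold change -4.65), Snai2, a repressor active in basal cells (-4.42), and the smooth muscle genes Acta2 (-4.35) and Tagln (-3.53). Markers of fat, of basal and myoepithelial cells and of fibroblasts were lower in the same tumors. Named after their values were seen, Ccn2, which is widely used as a readout of TGF-beta, did not pass (-0.0060, adjusted p = 0.991, edgeR), and Bhlhe40 (1.71) rose. The other gene called higher, Junb (0.51), was not called without benign replicate 3, 4, 5 or 6 or tumor 2, 3 or 5 (0.42 to 0.54), and Klf10 (0.41), not called, was called higher without tumor 2, 3 or 4 (0.55 to 0.58). Fn1 (-0.82), called lower, was not called without benign replicate 1, 2, 3 or 5 or tumor 1, 2, 3, 5 or 6 (-0.78 to -0.62). Cdkn1a (-0.75), not called, was called lower without tumor 5 (-1.10). Over its 23 alternatives the value of Cdkn1a ran from -1.26 to 0.11.

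**Figure D5:**
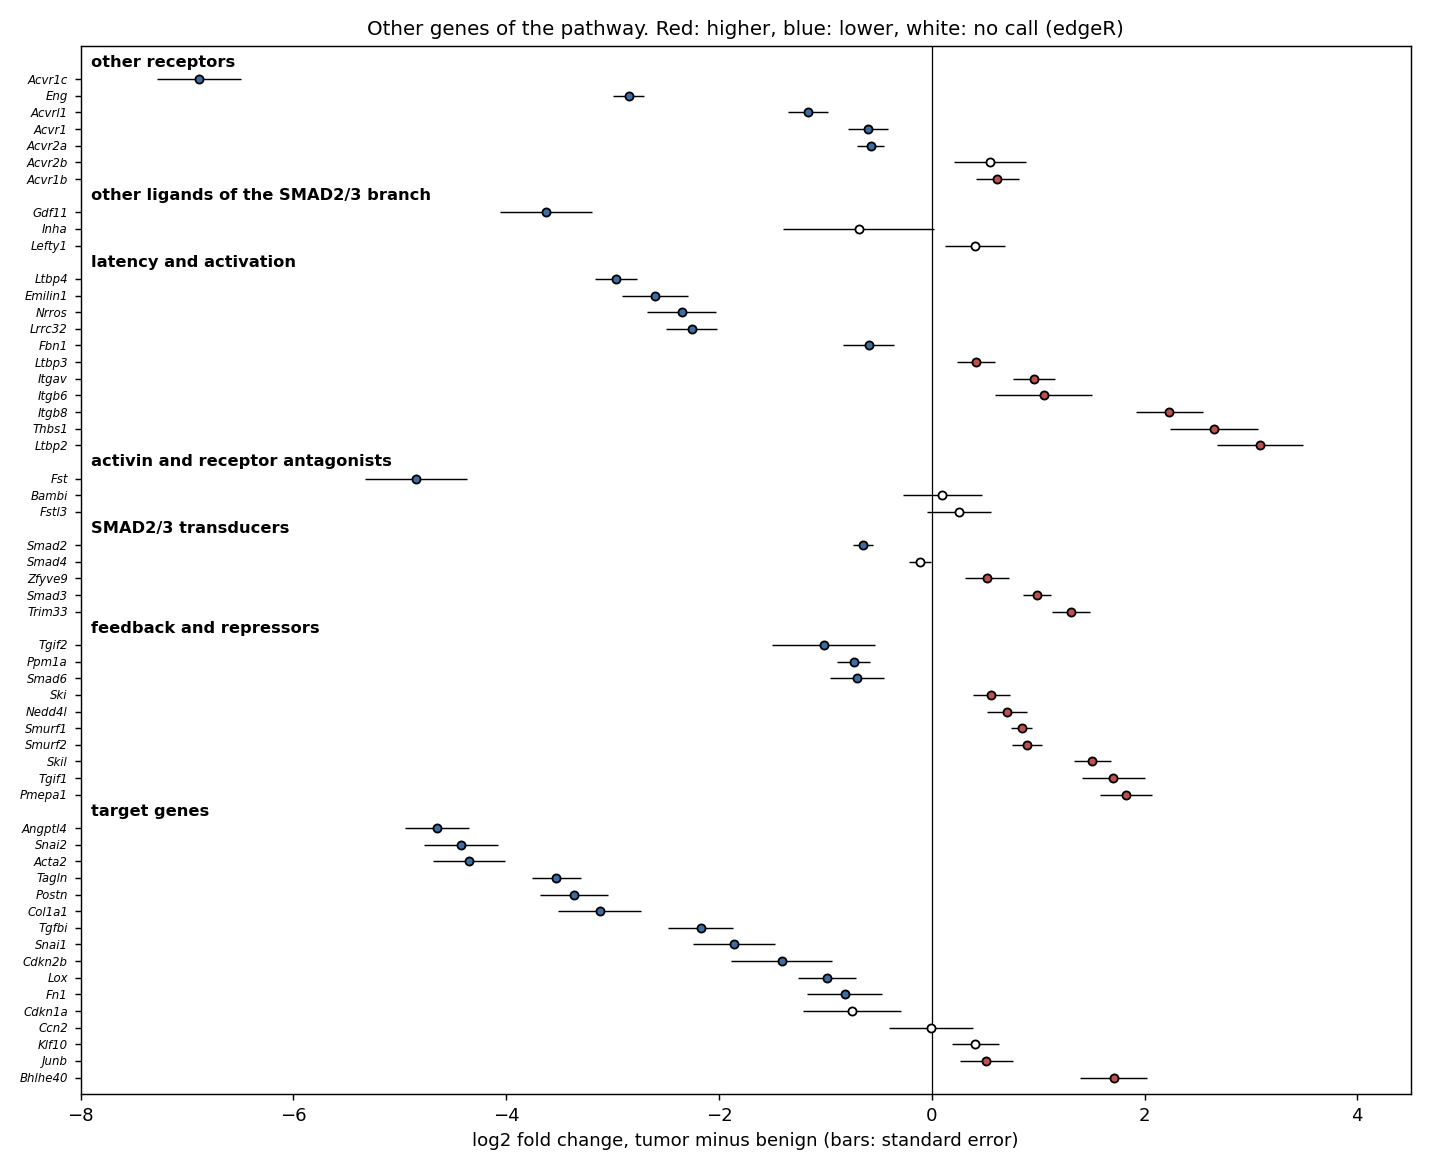
edgeR log2 fold change (tumor minus benign, with standard error) of 55 of the 56 other pathway genes tested, grouped by role, with filled points for genes called higher (red) or lower (blue) and open points for those not called. Most target genes and receptors lie left of 0, and most feedback genes and repressors lie right of it.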

How the data were processed

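RNA from 6 tumors and 6 benign mammary samples was enriched for poly A, prepared with a directional kit and sequenced as 2 × 50 base pairs. The authors trimmed reads with Trim Galore and quantified transcripts with Salmon, the submitters' processing notes name mm10 (GRCm38), and versions are not given in the sources used here. The deposited values are whole-number counts per gene, not scaled, and 0 columns were left without a sample. Samples were grouped by their titles.

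From these counts, genes were filtered with filterByExpr (minimum count 10, minimum total 15), scaled by TMM and compared by edgeR's quasi-likelihood test (edgeR 4.0.16, R 4.3.3). Its p-values were two-sided and were adjusted by the Benjamini-Hochberg method over 13191 genes, with the study's threshold of 0.1. The common biological coefficient of variation was 0.351. At the mean library size 3 counts correspond to 0.414 CPM. The smallest chi-square per degree of freedom between replicates was 12.4 in benign tissue and 15.6 in tumors. Log2 ratios within samples (2 prior counts) were compared by exact permutation, adjusted over 5 ratios and read at 0.05. The code was tested on simulated data.

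The 10 genes and the lists were chosen with earlier results of these data known. Named genes are the 10, Erbb2, every gene of a list of 8 or fewer, and the 4 called genes of each other list with the largest absolute log2 fold change. Ctgf was matched as Ccn2. The values of 1 target gene are not reported here, and it enters only the counts and medians. Nodal, Lefty2, Inhbc, Inhbe and Foxh1 were not analysed here. Lengths and coordinates came from GENCODE M21 and upstream sequences from RefSeq, both on GRCm38. Alternatives were DESeq2 1.42.0, other scalings and filters, a threshold of 0.05, a replicate block, covariates and leaving out samples.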

Additional observations from a re-analysis of the deposited data

Results flagged for a closer look

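In 30 sets of 6 values examined (levels of the 10 genes and the 5 ratios, in each group), 5 held a sample far from the others by Dixon's gap criterion, where chance gives about 1 in 20. Tgfb1 in tumor 5 was at a log2 CPM of 7.42, against 5.14 to 5.60 in the other tumors. With it, the log2 ratio of Tgfb2 to Tgfb1 in tumor 5 was -2.27 against -0.22 to 0.63, and that of Tgfb3 to Tgfb1 was 0.63 against 2.61 to 3.63. Smad7 in benign replicate 1 was at a log2 CPM of 5.53, against 4.01 to 4.31 in the other benign samples, and this sample also held the lymphocyte markers at 579 CPM. The log2 ratio of Tgfbr3 to Tgfbr2 in benign replicate 2 was -0.082, against -0.57 to -0.41 in the other benign samples.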

How the results depend on the processing

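Inhbb (log2 fold change 2.57 to 2.94), Tgfb3 (1.42 to 2.03) and Tgfbr3 (-1.61 to -1.37) kept their calls in all 23 alternatives, of which 12 left out single samples, and no called value changed its sign. Inhba could not be fitted where each sample had to hold 10 counts or more. The count of the 10 genes called higher, 2, was 2 to 4 when single samples were left out and 4 without benign replicate 1 and tumor 5, an alternative chosen after seeing the data. The count called lower, 2, was 1 to 2 when single samples were left out, and 1 both without benign replicates 3, 4 and 6 and with the muscle score and Ucp1 as covariates. Total count scaling moved the median log2 fold change of all genes from -0.06 to 0.06.

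Same-numbered samples came from different mice, and the correlations of their deviations ran from -0.124 to 0.103, so the numbers do not pair them. A replicate block left 2 genes higher and 2 lower. Under the block, read as sign flips over 6 pairs, the ratios kept their values but reached an adjusted p of 0.078 for Inhba to Inhbb (-2.10), Tgfb3 to Tgfb1 (2.12), Tgfbr1 to Tgfbr2 (0.85) and Tgfbr3 to Tgfbr2 (-0.93). Sign flips over 6 pairs cannot give an unadjusted p below 0.03125, which Inhba to Inhbb and Tgfbr3 to Tgfbr2 reached. With single samples left out, the differences were -2.48 to -1.90, 1.92 to 2.55, 0.71 to 0.94 and -1.05 to -0.84, and that of Tgfb2 to Tgfb1 was 0.71 to 1.40. Without benign replicate 1 and tumor 5 the last was 1.13 (adjusted p = 0.024, exact permutation test). The cause of these changes was not tested. Depth limits Inhba above all, at 6 to 33 counts per sample.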
